A study of Mus musculus with 2 samples.

Results

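A set of 8 genes through which a T cell gives or receives a costimulatory signal was examined in single lung γδ T cells. They were the ligand Cd40lg, the CD28 family receptors Cd28 and Icos, and the tumor necrosis factor receptor (TNFR) family members Cd27, Tnfrsf4, Tnfrsf9, Tnfrsf18 and Tnfrsf25. They were chosen by symbol, 8 of the 32285 genes counted, with earlier results of these libraries known. The difference of Cd40lg, Cd28 and Cd27 between the libraries was among what chose them, so ratios between the libraries are given here as a description. The WT library held Vγ1-negative γδ T cells of C57BL/6NCrl mice. The second library held Vγ1+ cells of the strain B6.Cg-Tcrgtm1lku(B6.Vg4-/-Vg6-/-), which lacks the Vγ4 and Vγ6 chains. All mice were uninfected and 5 to 7 weeks old, the cells were sorted from lung, and how many animals each library pooled is not given in the sources used here. There was 1 library per group and therefore no replicate, no test and no p-value. The sex of the animals in each library is not given either, and Y-linked UMIs differed between the libraries. Genotype, sort, strain, sex and library cannot be told apart.

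T cells integrate the signal of the T cell receptor (TCR) with costimulatory signals. CD28 and ICOS bind ligands of the B7 family, whereas CD27, OX40, GITR and DR3 bind ligands of the TNF superfamily and signal through TRAF adaptors or, for DR3, a death domain. CD40 ligand is displayed by activated T cells and engages CD40 on B cells, dendritic cells and macrophages. In mouse γδ T cells, CD27 is known to mark cells committed to IFN-γ, and cells without it include those that make IL-17. CXCR6 is a chemokine receptor of T cells that reside in or home to tissues such as the lung.

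The WT library held 2505 cells and the other 6634 cells after the cell filter stated by the study, with medians of 3288 and 3521 unique molecular identifiers (UMIs) per cell. The study gives fewer cells for each library, so the cells described are not the same set. The WT library had 2906 Tcrg-V6 UMIs and the other had 0, but their Tcrg-V4 counts were 715 and 1291 UMIs. Tcrg-V4 thus went against the label of the second library, which is called KO-labelled below. The WT library held 251 Tcrg-V1 UMIs and 84 cells with Tcrg-V1 alone, which goes against its label as Vγ1-negative. Of the WT cells 90.9% held a Cd3 or Trdc UMI, and of the KO-labelled cells 96.5% did. The share with a Cd4, Cd8a, Foxp3 or Trbv UMI was 29.8% and 49.8%. The 4 lung epithelial markers summed to 396 CPM (UMIs per 1000000 UMIs of the summed cells) in WT and 25.3 CPM in KO-labelled cells, and the 9 myeloid markers to 720 and 239 CPM. Y-linked UMIs were found in 24.5% and 0.467% of cells, and 23 cell barcodes occurred in both libraries. The 60 WT and 30 KO-labelled cells with myeloid or B cell markers and no Cd3 or Trdc UMI had 0 UMIs of Cd40lg, Cd28, Cd27, Tnfrsf4 and Tnfrsf25, which with 3 cells as the limit allows a UMI in up to 5% and 10% of such cells, and at most 1 UMI of each other member. Their median depth was 2479 and 2302.5 UMIs. Levels are CPM of UMIs summed over cells, with exact 95% Poisson intervals. Shares of cells with a UMI are given after each cell was thinned to 2000 UMIs, with exact Clopper-Pearson intervals. All intervals cover counting error only.

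The share of cells with a Cxcr6 UMI was 45.1% in WT (43.1 to 47.1) and 31.3% in the KO-labelled library (30.2 to 32.4). They were deeper than the other cells, with medians of 3581 against 3016 UMIs in WT and 4182.5 against 3259 in the KO-labelled library. Delta chain groups are cells with UMIs of a single delta variable gene, and Tcrg-V groups are cells with UMIs of a single gamma variable gene. Groups of at least 50 cells are described. In WT these were Trdv4 (701 cells), Trdv5 (379), Trdv2-2 (283) and Trav13-4-dv7 (243). In the KO-labelled library they were Trav15-dv6 (935 cells, 4 similar genes counted as 1), Trdv2-2 (875), Trdv1 (593), Trdv5 (424), Trav13-4-dv7 (246), Trav21-dv12 (178) and Trdv4 (87). Of WT Trdv4 cells 87.2% had a Cxcr6 UMI, and in the KO-labelled library the share lay between 16.2% for Trdv1 and 64.4% for Trdv4.

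Over all cells, 2 of the 8 genes, Cd40lg and Cd28, were at least 2-fold higher in the KO-labelled library, and 0 were at least 2-fold lower. Of all 12275 genes with at least 30 UMIs, 2.94% were that much higher and 7.09% that much lower. The median log2 ratio was 0.52 over the members and 0.02 over all genes. Among cells with a Cxcr6 UMI, 3 members were at least 2-fold higher, Cd40lg, Cd28 and Cd27, against 4.79% of genes, and 0 were lower, against 4.04%. Of these, Cd27 was at 10.4 CPM in WT Trdv4 cells with Cxcr6. In Tcrg-V4 cells with Cxcr6 it was at 207 CPM in WT and 238 CPM in the KO-labelled library. Among cells without a Cxcr6 UMI, Cd40lg alone was at least 2-fold higher, against 2.12% of genes, and 0 members were lower, against 7.55%. The members were chosen on this contrast, so these counts are no evidence of their direction.

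**Figure D1:**
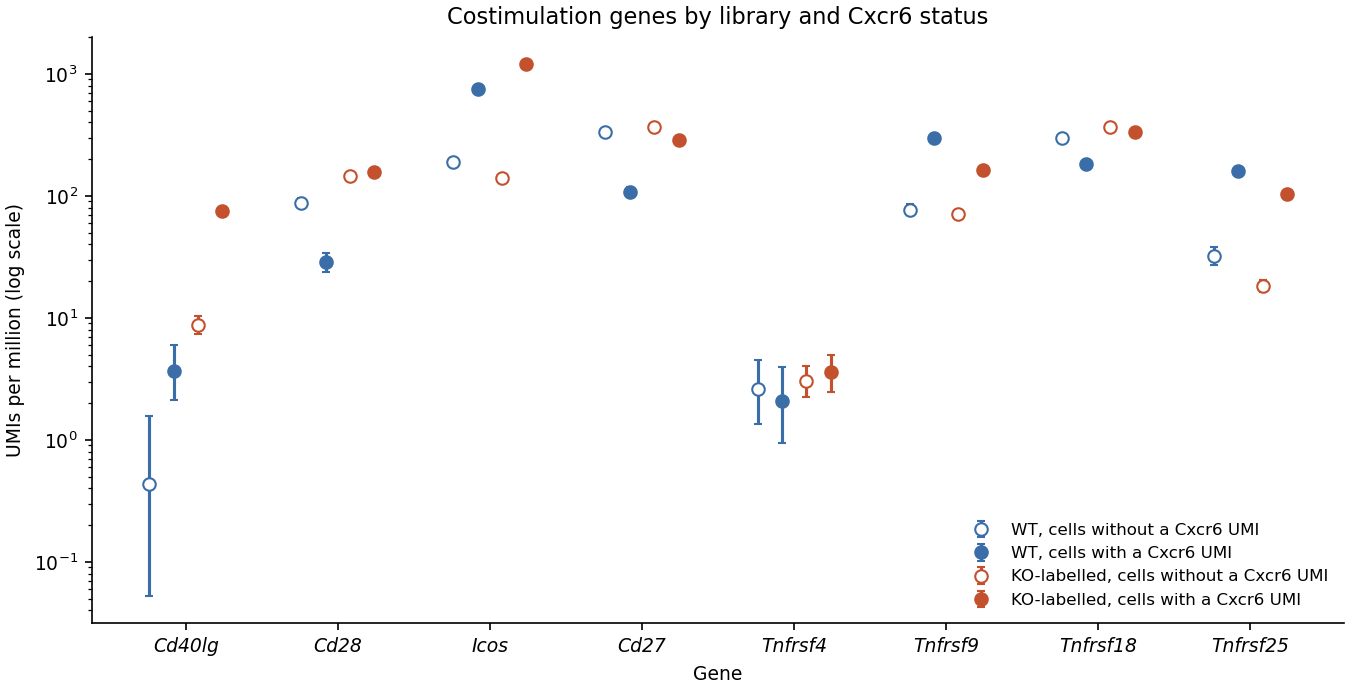
Level of each of the 8 genes (CPM of summed UMIs, log axis) in WT and KO-labelled cells with and without a Cxcr6 UMI; bars are exact 95% Poisson intervals of counting error. Icos stood at 752 and 1196 CPM with Cxcr6 against 191 and 141 CPM without, while Cd28 was at 28.6 and 87.9 CPM in WT but at 156 and 144 CPM in KO-labelled cells.

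Cd40lg (ENSMUSG00000031132, GRCm38 chromosome X, 57212143 to 57224042, plus strand) encodes CD40 ligand, the only ligand among the members. It had 18 UMIs in 11 WT cells and 857 UMIs in 506 KO-labelled cells, that is 2.01 CPM (1.19 to 3.17) and 33.1 CPM (30.9 to 35.4). The log2 ratio was 4.04 (3.37 to 4.80). A Cd40lg UMI remained after thinning in 9 of 2125 WT cells, or 0.424% (0.194 to 0.802), and in 275 of 5806 KO-labelled cells, or 4.74% (4.20 to 5.31). Without thinning the shares were 0.439% and 7.63%. In the KO-labelled library, 309 of the 506 cells had a single Cd40lg UMI and the highest count in a cell was 9, so the sum was spread over many cells. Without cells with Y-linked UMIs the log2 ratio of this X-linked gene was 4.43, and without cells with Cd4, Cd8a, Foxp3 or Trbv UMIs it was 4.04. Male cells without a Y-linked UMI stay in, so the first of these does not remove a difference in sex.

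Most Cd40lg transcripts lay in Cxcr6 cells. In the KO-labelled library 83.2% of its UMIs (80.5 to 85.6) came from cells with a Cxcr6 UMI, which held 409 of the 506 Cd40lg cells. The level there was 74.8 CPM (69.4 to 80.5) against 8.79 CPM (7.42 to 10.4) in cells without, a log2 ratio of 3.09 (2.83 to 3.36). In WT the 16 UMIs with Cxcr6 and 2 UMIs without gave 3.69 and 0.43 CPM, and a log2 ratio of 3.09 whose interval ran from 1.0 to 6.26.

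Cd40lg was present in every KO-labelled delta chain group, at 114 CPM in Trdv4, 43.2 CPM in Trav15-dv6, 32.9 CPM in Trav21-dv12, 27.3 CPM in Trdv5, 24.0 CPM in Trdv2-2, 20.5 CPM in Trav13-4-dv7 and 14.1 CPM in Trdv1. Trdv4, at the top of this order, held 87 cells and 39 Cd40lg UMIs. Only 1 of the 6 neighbouring pairs in this order had counting intervals apart. In WT the 4 groups lay between 0 and 4.65 CPM. Their neighbours in that order could not be told apart by counting intervals. Trdv2-2 had 0 UMIs in 283 WT cells and 76 UMIs in 875 KO-labelled cells, at least 7.62-fold higher against a floor of 3 UMIs. By gamma chain, Tcrg-V1 cells had 0 UMIs in 84 WT cells and 369 UMIs in 2128 KO-labelled cells, at least 4.32-fold higher. Tcrg-V4 cells had 0 UMIs in 410 WT cells and 29 UMIs in 364 KO-labelled cells, at least 10.6-fold higher. Those 29 UMIs fell short of the minimum of 30 for a count of genes. The level in WT Tcrg-V6 cells was 2.02 CPM.

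KO-labelled cells with Cd40lg also differed in other transcripts, as described on 275 thinned cells with and 5531 without a Cd40lg UMI. Zbtb16, encoding the transcription factor PLZF, was read in 52.4% (46.3 to 58.4) against 21.9%, Il23r in 26.5% (21.4 to 32.2) against 7.43% and Maf in 22.5% (17.7 to 27.9) against 8.33%. Ccr7, encoding a chemokine receptor of naive T cells, was read in 12.4% (8.72 to 16.8) against 43.8%. Tbx21, a type 1 marker, was read in 12.4% (8.72 to 16.8) against 4.74%. Cells with Cd40lg thus more often held Zbtb16, Il23r, Maf and Tbx21 UMIs and less often Ccr7 UMIs. Within Cxcr6 cells, 225 with and 1712 without Cd40lg, the gaps were smaller. Zbtb16 was at 54.2% (47.5 to 60.9) against 43.8% and Ccr7 at 12% (8.06 to 17.0) against 20.4% there. The intervals overlapped for Il23r, at 28.9% (23.1 to 35.3) against 21.7% (19.7 to 23.7). They also did for Maf, at 24.4% (19.0 to 30.6) against 18.5% (16.7 to 20.4), and Tbx21, at 11.6% (7.69 to 16.5) against 7.01% (5.85 to 8.32). Cd4, which marks the helper αβ T cells best known for CD40 ligand, was read in 3 of the 275 cells, or 1.09% (0.226 to 3.15), against 0.542% of the others. A Cd4, Cd8a, Foxp3 or Trbv UMI was in 44.7% of cells with and 53.9% of cells without Cd40lg before thinning.

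**Figure D2:**
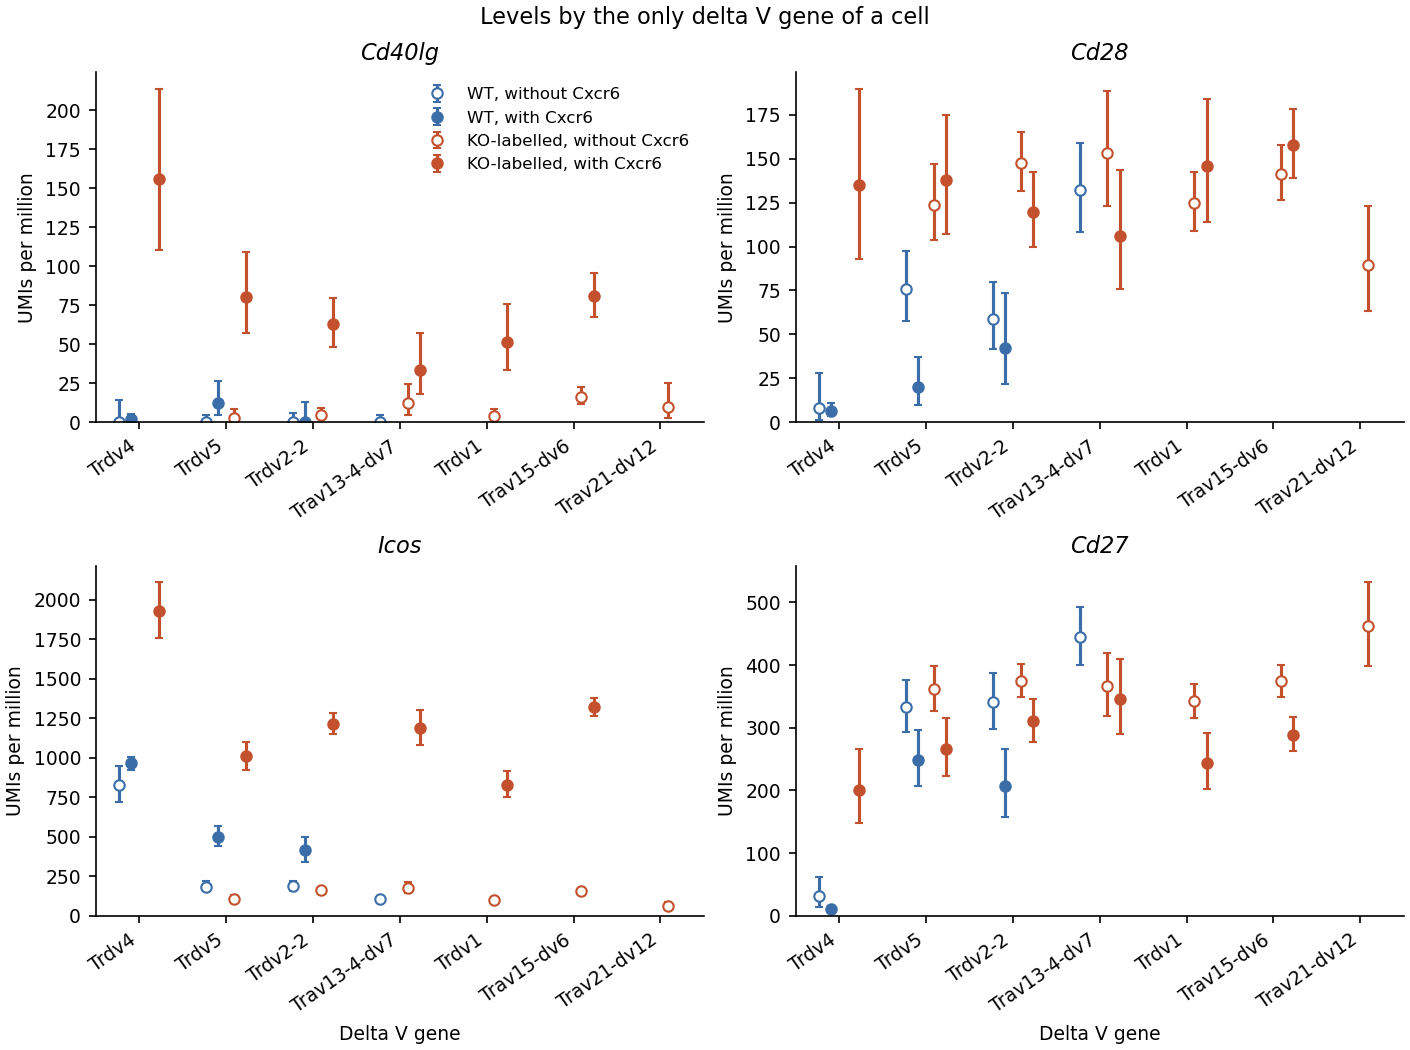
Levels of Cd40lg, Cd28, Cd27 and Icos (CPM) in delta chain groups of each library, for cells with and without a Cxcr6 UMI; bars are exact 95% Poisson intervals and sums of under 50 cells are left out. With Cxcr6, WT Trdv4 cells were lowest in Cd28 at 6.51 CPM and Cd27 at 10.4 CPM, while KO-labelled Trdv4 cells were at 135 and 201 CPM and highest in Cd40lg at 156 CPM.

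Cd28 (ENSMUSG00000026012, chromosome 1, 60716800 to 60773359, plus strand) encodes the receptor for CD80 and CD86. It had 59.2 CPM (54.3 to 64.4) in WT and 149 CPM (144 to 153) in KO-labelled cells, a log2 ratio of 1.33 (1.20 to 1.46). The thinned share of cells with a Cd28 UMI was 8.94% (7.76 to 10.2) in WT and 22.2% (21.1 to 23.3) in the KO-labelled library. The ratio depended on which WT cells were counted. Without cells that had Trdv4 or Tcrg-V6 UMIs it was 0.85, an alternative chosen after the data were seen.

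Over all cells, Cd28 was lower with Cxcr6 in WT and close to level in the KO-labelled library. This difference was not seen within every receptor group. In WT Cd28 was at 28.6 CPM (23.8 to 34.1) with a Cxcr6 UMI and 87.9 CPM (79.6 to 96.9) without, a log2 ratio of -1.62 (-1.92 to -1.33). In KO-labelled cells it was at 156 CPM (148 to 164) and 144 CPM (139 to 150), a log2 ratio of 0.11 (0.02 to 0.20). The difference of these ratios was 1.73 (1.43 to 2.04), and 1.05 (0.67 to 1.42) without Trdv4 or Tcrg-V6 cells. It was 2.07 (1.02 to 3.12) in Trdv5 cells and 1.12 (0.36 to 1.88) in Tcrg-V4 cells. KO-labelled Tcrg-V1 cells were at 150.5 CPM (139 to 163) with and 149.9 CPM (140 to 161) without Cxcr6, which could not be told apart. In Trdv2-2 cells the point value was negative in both libraries, at -0.48 in WT and -0.31 in KO-labelled cells, with a difference of 0.17 (-0.81 to 1.15). The same held in Trav13-4-dv7 cells, at -0.27 and -0.54, with a difference of -0.27 (-1.24 to 0.69). The WT values rest on 85 Trdv2-2 and 35 Trav13-4-dv7 cells with Cxcr6, so no sign is claimed for them. After thinning, 3.06% of WT Cxcr6 cells and 24.1% of KO-labelled Cxcr6 cells had a Cd28 UMI, against 14.6% and 21.2% of cells without Cxcr6. Lung epithelial markers summed to 13.6 CPM in WT cells with Cxcr6 and 754 CPM in those without, and their part in the result was not tested.

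Trdv4 cells held the lowest WT level of Cd28, 6.63 CPM from 17 UMIs, and 141 CPM in the KO-labelled library. Trdv5 was at 54.2 CPM in WT and 128 CPM in the KO-labelled library, and Trdv2-2 at 53.6 and 138 CPM. Trav13-4-dv7 cells were at 129 (107 to 154) and 134 CPM (112 to 160), a log2 ratio of 0.06 (-0.31 to 0.43), so the libraries could not be told apart in this group. Within Cxcr6 cells, Trdv5 cells had 20.1 CPM of Cd28 in WT, from 10 UMIs, and 138 CPM in KO-labelled cells, which is 2.78 (1.82 to 3.90) on the log2 scale. The KO-labelled groups with Cxcr6 differed little among themselves, from 106 CPM in Trav13-4-dv7 to 158 CPM in Trav15-dv6. In Tcrg-V4 cells Cd28 was at 69.5 and 168 CPM, in Tcrg-V1 cells at 103 and 150 CPM, and in WT Tcrg-V6 cells at 10.6 CPM.

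Icos (ENSMUSG00000026009, chromosome 1, 60977927 to 61000320, plus strand) encodes the inducible receptor of the CD28 family. It had 462 CPM (448 to 477) in WT and 529 CPM (520 to 538) in KO-labelled cells, the smallest ratio among Cd40lg, Cd28, Cd27 and Icos, with a log2 ratio of 0.19 (0.14 to 0.24). Without Trdv4 or Tcrg-V6 cells the ratio was 1.16, again an alternative added later. Icos was higher with Cxcr6 in both libraries. Its level was 752 CPM (726 to 778) with and 191 CPM (179 to 204) without Cxcr6 in WT, a log2 ratio of 1.98 (1.87 to 2.08). In KO-labelled cells it was 1196 CPM (1174 to 1218) and 141 CPM (135 to 146), a log2 ratio of 3.09 (3.02 to 3.15). After thinning, 64.1% and 67.3% of Cxcr6 cells had an Icos UMI, a smaller gap between libraries than in CPM.

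WT Icos was highest in Trdv4 cells at 949.9 CPM, followed by Trdv5 at 306, Trdv2-2 at 254 and Trav13-4-dv7 at 155 CPM. KO-labelled levels were 1461 CPM in Trdv4, 644 in Trav15-dv6, 577 in Trav13-4-dv7, 514 in Trdv2-2, 395 in Trdv5, 343 in Trav21-dv12 and 258 CPM in Trdv1. Trdv4 thus led both orders. Counting intervals were apart for 2 of 3 neighbouring pairs in the WT order and 3 of 6 in the KO-labelled order. Among KO-labelled Cxcr6 cells the groups ran from 829 CPM in Trdv1 to 1929 CPM in Trdv4. The log2 ratio with over without Cxcr6 was larger in the KO-labelled library by 1.78 (1.37 to 2.20) in Trdv5, 1.73 (1.33 to 2.13) in Trdv2-2 and 1.92 (1.52 to 2.32) in Tcrg-V4 cells. In Trav13-4-dv7 the difference was 0.51 (-0.06 to 1.07) and could not be told from 0.

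**Figure D3:**
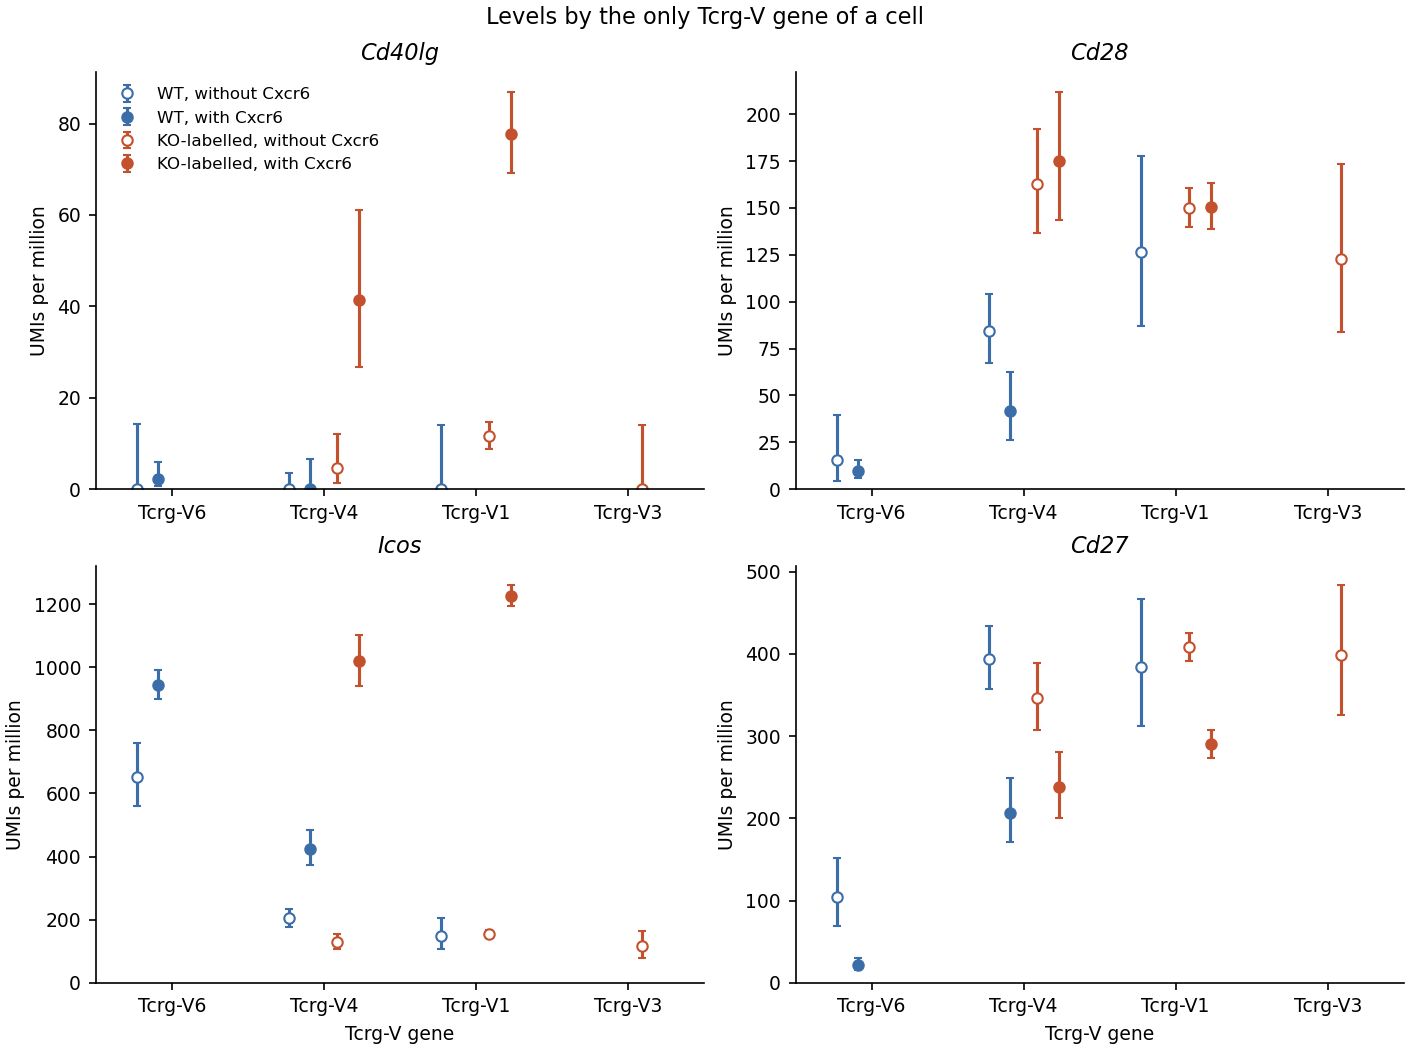
Levels of the same genes (CPM) by Tcrg-V group for cells with and without a Cxcr6 UMI; bars are exact 95% Poisson intervals and sums of under 50 cells are left out. With Cxcr6, WT Tcrg-V6 cells had 943 CPM of Icos and 9.87 CPM of Cd28, while KO-labelled Tcrg-V1 and Tcrg-V4 cells had 1227 and 1019 CPM of Icos and 150.5 and 175 CPM of Cd28.

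Cd27 (ENSMUSG00000030336, chromosome 6, 125232622 to 125237010, minus strand) encodes the receptor for CD70. It had 224 CPM (214 to 234) in WT and 339 CPM (332 to 347) in KO-labelled cells, a log2 ratio of 0.60 (0.53 to 0.67), which was 0.08 without Trdv4 or Tcrg-V6 cells. The level was lower with Cxcr6 in both libraries, at 108 CPM (98.5 to 118) against 332 CPM (316 to 349) in WT and 288 CPM (278 to 299) against 369 CPM (360 to 379) in KO-labelled cells. The log2 ratios were -1.62 (-1.77 to -1.47) and -0.36 (-0.42 to -0.29). Their difference was 1.26 (1.10 to 1.42), and 0.18 (-0.00 to 0.36) without Trdv4 or Tcrg-V6 cells.

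WT Trdv4 cells had 32 Cd27 UMIs in 701 cells, or 12.5 CPM, and WT Tcrg-V6 cells had 32.8 CPM. The other WT delta groups lay between 300.5 CPM in Trdv2-2 and 415 CPM in Trav13-4-dv7. KO-labelled Trdv4 cells had 231 CPM, and the other KO-labelled delta groups lay between 321 CPM in Trdv1 and 408 CPM in Trav21-dv12. In Tcrg-V1 cells the libraries were at 354 and 358 CPM, a log2 ratio of 0.02 (-0.25 to 0.30). Cd27 overlaps Vamp1 on the opposite strand, and without knowledge of how strand was used their reads cannot be told apart.

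Tnfrsf18 (ENSMUSG00000041954, chromosome 4, 156026164 to 156028895, plus strand), encoding GITR, ran close to Cd27. It had 242 CPM (232 to 252) in WT and 357 CPM (349 to 364) in KO-labelled cells, a log2 ratio of 0.56 (0.49 to 0.63). The log2 ratio with over without Cxcr6 was -0.71 (-0.84 to -0.58) in WT and -0.14 (-0.20 to -0.07) in KO-labelled cells. Without Trdv4 or Tcrg-V6 cells it was -0.04 (-0.20 to 0.12) in WT, and the difference between libraries was -0.07 (-0.24 to 0.10), so neither could be told from 0. WT Trdv4 cells had 99.5 CPM and the other WT groups between 279 and 354 CPM. The KO-labelled groups lay between 287 CPM in Trdv4 and 395 CPM in Trav21-dv12. The antisense gene Gm16008 overlaps Tnfrsf18 and its reads cannot be told apart from it.

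Tnfrsf9 (ENSMUSG00000028965, chromosome 4, 150914562 to 150946102, plus strand) and Tnfrsf25 (ENSMUSG00000024793, chromosome 4, 152115934 to 152120119, plus strand) were lower in the KO-labelled library, though by less than 2-fold. Tnfrsf9 encodes a receptor induced on activated T cells, and Tnfrsf25 encodes DR3, the receptor for TL1A. Tnfrsf9 had 183 CPM (175 to 193) in WT and 105 CPM (101 to 109) in KO-labelled cells, a log2 ratio of -0.81 (-0.89 to -0.72). Tnfrsf25 had 94.1 CPM (87.8 to 101) and 49.8 CPM (47.1 to 52.6), a log2 ratio of -0.92 (-1.04 to -0.79). WT Trdv4 cells had 420 CPM of Tnfrsf9 and 201 CPM of Tnfrsf25, against at most 80.9 and 79.0 CPM in the other WT groups. Without Trdv4 or Tcrg-V6 cells the ratios were 0.46 and 0.11, the opposite direction. Tnfrsf9 overlaps Camta1 on the opposite strand, with the same limit as for Cd27.

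Over all cells, both genes were higher with Cxcr6 in each library. The log2 ratio was 1.95 (1.78 to 2.12) in WT and 1.20 (1.09 to 1.31) in KO-labelled cells for Tnfrsf9, and 2.31 (2.06 to 2.58) and 2.51 (2.32 to 2.70) for Tnfrsf25. Without Trdv4 or Tcrg-V6 cells the WT ratio of Tnfrsf9 was 0.51, and the difference between libraries turned from -0.75 (-0.95 to -0.55) to 0.62 (0.30 to 0.94). In WT Tcrg-V4 cells Tnfrsf9 had a ratio of -0.27. The ratios of Tnfrsf25 differed by 0.20 (-0.12 to 0.51), within counting error, and by 0.49 (0.08 to 0.91) without Trdv4 or Tcrg-V6 cells. Tnfrsf25 was at 160 CPM with Cxcr6 and 32.2 CPM without in WT, and at 104 and 18.3 CPM in KO-labelled cells. Tnfrsf4 (ENSMUSG00000029075, chromosome 4, 156013843 to 156016612, plus strand), encoding OX40, was rare, with 21 UMIs in 14 WT cells and 84 UMIs in 55 KO-labelled cells. Its log2 ratio of 0.47 (-0.23 to 1.23) could not be told from 0.

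The start regions of 3 TNFR family genes are shown because 2 of them, Tnfrsf9 and Tnfrsf25, were higher with Cxcr6 in both libraries and the third, Cd27, was lower. They are the 250 bases before a transcript start without an annotated exon, from RefSeq on GRCm38.p6, at chr4:150919905-150920154 (plus strand), chr4:152115684-152115933 (plus strand) and chr6:125237028-125237277 (minus strand), each printed 5′ to 3′ in the direction of the gene. Start regions were at hand for 5 of the 8 members, and 3 of their 7 regions had no such exon. The Tnfrsf9 region shown lies inside the annotated gene (150914562 to 150946102), before an internal start, whereas those of Tnfrsf25 and Cd27 lie outside their genes. Capitals mark matches to CTTTGA, the TCF/LEF core, AGGTCA, the ROR site, TGANTCA, the AP-1 site, or the NF-kB site, which is GGG and CC with 5 bases between them, searched on both strands, with overlapping matches joined.
Tnfrsf9: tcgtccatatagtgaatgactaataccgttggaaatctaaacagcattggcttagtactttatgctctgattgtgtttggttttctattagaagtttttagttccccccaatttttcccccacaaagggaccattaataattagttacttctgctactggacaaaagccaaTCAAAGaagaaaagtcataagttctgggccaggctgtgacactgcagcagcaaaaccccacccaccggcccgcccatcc
Tnfrsf25: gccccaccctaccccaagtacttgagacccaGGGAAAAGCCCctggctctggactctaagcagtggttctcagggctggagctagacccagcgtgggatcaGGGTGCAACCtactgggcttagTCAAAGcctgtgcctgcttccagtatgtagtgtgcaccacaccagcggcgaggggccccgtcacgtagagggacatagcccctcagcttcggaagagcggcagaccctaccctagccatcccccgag
Cd27: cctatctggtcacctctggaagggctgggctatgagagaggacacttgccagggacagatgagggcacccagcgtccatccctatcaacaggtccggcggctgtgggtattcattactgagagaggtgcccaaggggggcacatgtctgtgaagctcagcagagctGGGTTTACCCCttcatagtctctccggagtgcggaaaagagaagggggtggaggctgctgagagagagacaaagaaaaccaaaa
Tnfrsf9 and Tnfrsf25 each held 1 match to CTTTGA on the opposite strand, 79 and 127 bases before the start, and the Cd27 region held 0. The NF-kB site matched in the Tnfrsf25 and Cd27 regions shown but not in that of Tnfrsf9. The other start regions of Tnfrsf9 and Tnfrsf25, which overlap an exon, held no match to CTTTGA. Both of them held matches to the NF-kB site, that of Tnfrsf9 also to TGANTCA and that of Tnfrsf25 also to AGGTCA. Of 32851 start regions of all genes, with or without an annotated exon, 13.8% held CTTTGA, 14.0% AGGTCA, 6.75% TGANTCA and 45.8% the NF-kB site, so a match is common. The GC content was 43.2% for Tnfrsf9, 61.6% for Tnfrsf25 and 56% for Cd27. A match describes these letters and is no evidence that a factor binds.

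**Figure D4:**
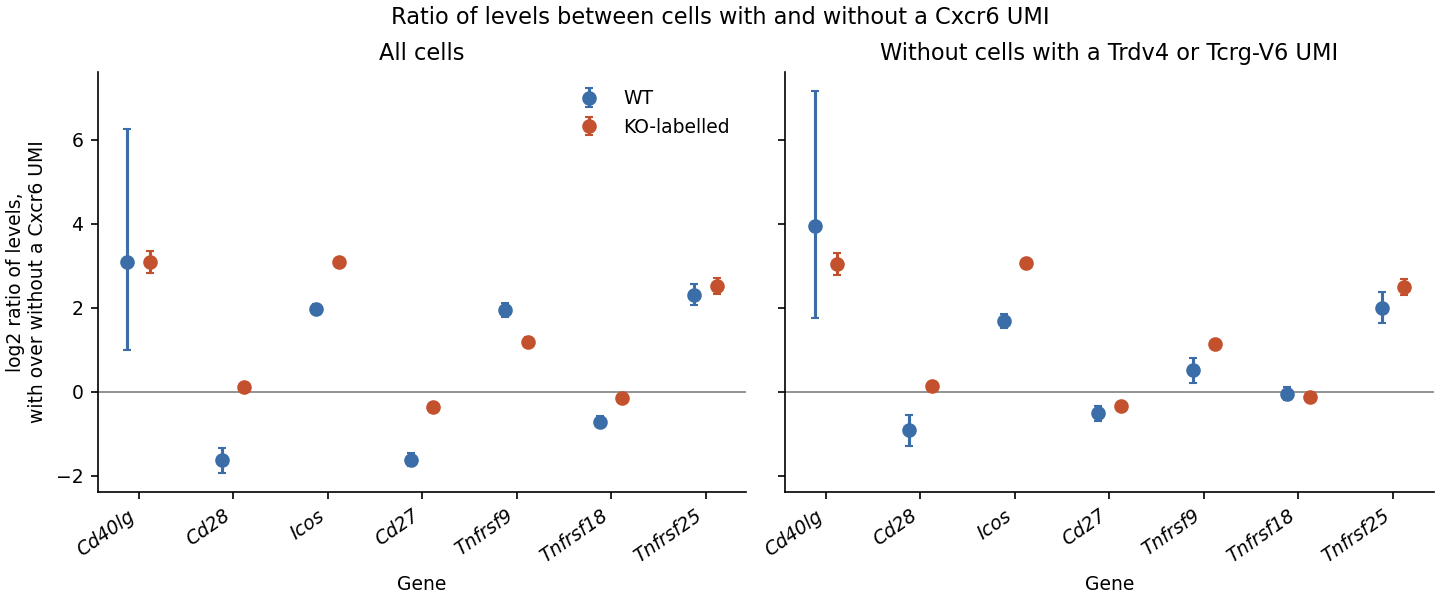
Log2 ratio of CPM with over without a Cxcr6 UMI for 7 of the genes in each library (Tnfrsf4, too rare, is left out), for all cells and without cells that had Trdv4 or Tcrg-V6 UMIs; bars are exact 95% intervals of counting error. Icos, Tnfrsf9 and Tnfrsf25 lie above 0 in each library and Cd27 below 0, whereas Cd28 is at -1.62 in WT and 0.11 in KO-labelled cells.

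Read over the members as a whole, 3 of 6 with enough UMIs were at least 2-fold higher in WT cells with Cxcr6, Icos, Tnfrsf9 and Tnfrsf25, and 2 were at least 2-fold lower, Cd28 and Cd27. Of all genes 4.72% were that much higher and 8.2% that much lower. The WT count rested on the Trdv4 or Tcrg-V6 cells. Without them Tnfrsf9 (0.51), Cd28 (-0.91) and Cd27 (-0.52) were under 2-fold, and Icos (1.68) and Tnfrsf25 (2.01) stayed past it. In KO-labelled cells 4 of 8 were at least 2-fold higher, Cd40lg, Icos, Tnfrsf9 and Tnfrsf25, against 5.7% of genes, and 0 were at least 2-fold lower, against 3.72%. The median log2 ratio of the members was 0.62 in WT and 0.71 in KO-labelled cells, and -0.08 and -0.05 over all genes. Myeloid and epithelial transcripts moved with this split. The myeloid markers summed to 239 CPM with and 1171 CPM without Cxcr6 in WT, and to 196 and 264 CPM in KO-labelled cells. Their part in the result was not tested.

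The counts within receptor groups differed from group to group. They are parts of the contrast on which the members were chosen, so they too are no evidence of direction. In Trdv2-2 cells 3 of 7 members were at least 2-fold higher in the KO-labelled library, Cd40lg, Cd28 and Icos, against 3.85% of genes. In Trdv5 cells these were 2 of 7, Cd40lg and Cd28, against 2.86%, and in Trav13-4-dv7 cells 2 of 6, Icos and Tnfrsf25, against 4.19%. In Trdv4 cells they were 4 of 7, Cd40lg, Cd28, Cd27 and Tnfrsf18, against 5.01%. In Tcrg-V1 cells they were 2 of 8, Cd40lg and Icos, against 7.12%, and in Tcrg-V4 cells 1 of 6, Cd28, against 2.35%. In these 6 groups 0 members were at least 2-fold lower, against 3.23%, 3.84%, 2.65%, 8.79%, 5.68% and 3.18% of genes in the same order. Single delta groups still mixed different γ chains. Where both chains could be fixed, WT cells with Trdv4 and Tcrg-V6 (440 cells) had 5.54 CPM of Cd28 and 989.8 CPM of Icos, and WT cells with Trdv5 and Tcrg-V4 (113 cells) had 27.2 and 351 CPM. KO-labelled cells with Trdv5 and Tcrg-V1 (146 cells) had 132 CPM of Cd28, 415 CPM of Icos and 32.9 CPM of Cd40lg. No pair of chains reached 50 cells in both libraries, so the γ chain differs between these sums. Cd28 in Trdv2-2 was at 48.2 CPM in WT with Tcrg-V4 and 114 CPM in KO-labelled cells with Tcrg-V1. In Trav13-4-dv7 the same 2 sums were at 126 CPM (90.3 to 172) and 145 CPM (108 to 191), with overlapping intervals.

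Co-detection was read as the share of thinned cells with UMIs of both genes over the product of the separate shares, which is 1 when the genes occur independently. It rises wherever both genes follow the same subset of cells. Cd40lg and Icos met more often than the product in the KO-labelled library. Of 275 cells with Cd40lg, 215 had Icos, or 78.2% (72.8 to 82.9), against 31.2% of cells without Cd40lg, and the ratio to the product was 2.34 (2.03 to 2.67). Within Cxcr6 cells it was 193 of 225 cells and a ratio of 1.28 (1.10 to 1.47), and in cells without Cxcr6 it was 2.66 (1.67 to 4.03). Icos was read in 67.3% of KO-labelled Cxcr6 cells, so the ratio cannot rise far above 1 there, and the values with and without Cxcr6 are not comparable. As shares, Icos was in 85.8% of Cxcr6 cells with Cd40lg and 64.8% of those without. In WT 8 of all 9 cells with Cd40lg had Icos, too few for an order.

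Cd40lg met Cd28 at 1.23 times the product (0.967 to 1.54), which could not be told from 1, and Cd27 at 0.768 times (0.618 to 0.944). Within KO-labelled Cxcr6 cells the ratio with Cd27 was 0.855. In KO-labelled Tcrg-V1 cells with Cxcr6 it was 0.956 (0.658 to 1.34), which could not be told from 1. Over all KO-labelled cells, Cd40lg and Tnfrsf25 met at 2.25 times the product (1.68 to 2.96), and both were higher with Cxcr6 there. By delta chain, Cd40lg and Icos met in 21 of 28 Cd40lg cells of Trdv2-2, 2.41 times the product (1.49 to 3.68), and in 43 of 60 of Trav15-dv6, 1.82 times (1.32 to 2.45). By gamma chain, they met in 100 of 123 cells of Tcrg-V1, 2.21 times the product (1.79 to 2.68). In Tcrg-V4 cells it was 9 of 12, or 1.95 times (0.892 to 3.70), which could not be told from 1.

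Over all cells, Cd28 and Cd27 paired in WT but were near independence in KO-labelled cells. In WT 95 cells had both, 1.80 times the product (1.46 to 2.21), with 3.27 times (1.83 to 5.39) within Cxcr6 cells and 1.25 times (0.988 to 1.55) without. In KO-labelled cells the ratio was 1.05 (0.968 to 1.14), and 1.20 (1.04 to 1.37) within those with Cxcr6. Within the WT Trav13-4-dv7 group it was 1.08, and in WT Tcrg-V4 cells 1.34.

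Over all WT cells, Icos met Cd28 and Cd27 less often than the product. Its ratio was 0.566 (0.416 to 0.753) with Cd28 and 0.684 (0.587 to 0.793) with Cd27, but 1.48 with Tnfrsf9 and 1.42 (1.23 to 1.62) with Tnfrsf25. Within smaller sets these could mostly not be told from 1. In WT Cxcr6 cells the ratio was 0.829 (0.483 to 1.33) with Cd28, 0.821 (0.650 to 1.02) with Cd27 and 0.988 (0.845 to 1.15) with Tnfrsf25. In WT Tcrg-V4 cells it was 0.832 (0.455 to 1.40) with Cd28 and 0.870 (0.653 to 1.13) with Cd27, and in WT Tcrg-V1 cells 1.44 (0.742 to 2.51) with Cd27. Over all KO-labelled cells Icos had ratios of 1.05 (0.956 to 1.15) with Cd28, 0.909 (0.845 to 0.976) with Cd27, 1.43 with Tnfrsf9 and 2.01 (1.80 to 2.25) with Tnfrsf25. The value for Cd27 was 1.02 without thinning, so no order is stated for that pair. Within KO-labelled Cxcr6 cells the ratio of Icos was 1.15 with Tnfrsf9, 0.973 with Cd28 and 0.953 with Cd27. With Tnfrsf9 it was 1.43 (1.20 to 1.69) in KO-labelled Tcrg-V1 cells but 1.02 (0.603 to 1.61) in Tcrg-V4 cells. Split by Cxcr6, the Tcrg-V1 value was 1.12 (0.934 to 1.33) with and 0.677 (0.338 to 1.21) without, which could not be told from 1. Cd27 and Tnfrsf18 met at 1.51 (1.34 to 1.69) in WT and 1.08 (1.02 to 1.14) in KO-labelled cells.

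**Figure D5:**
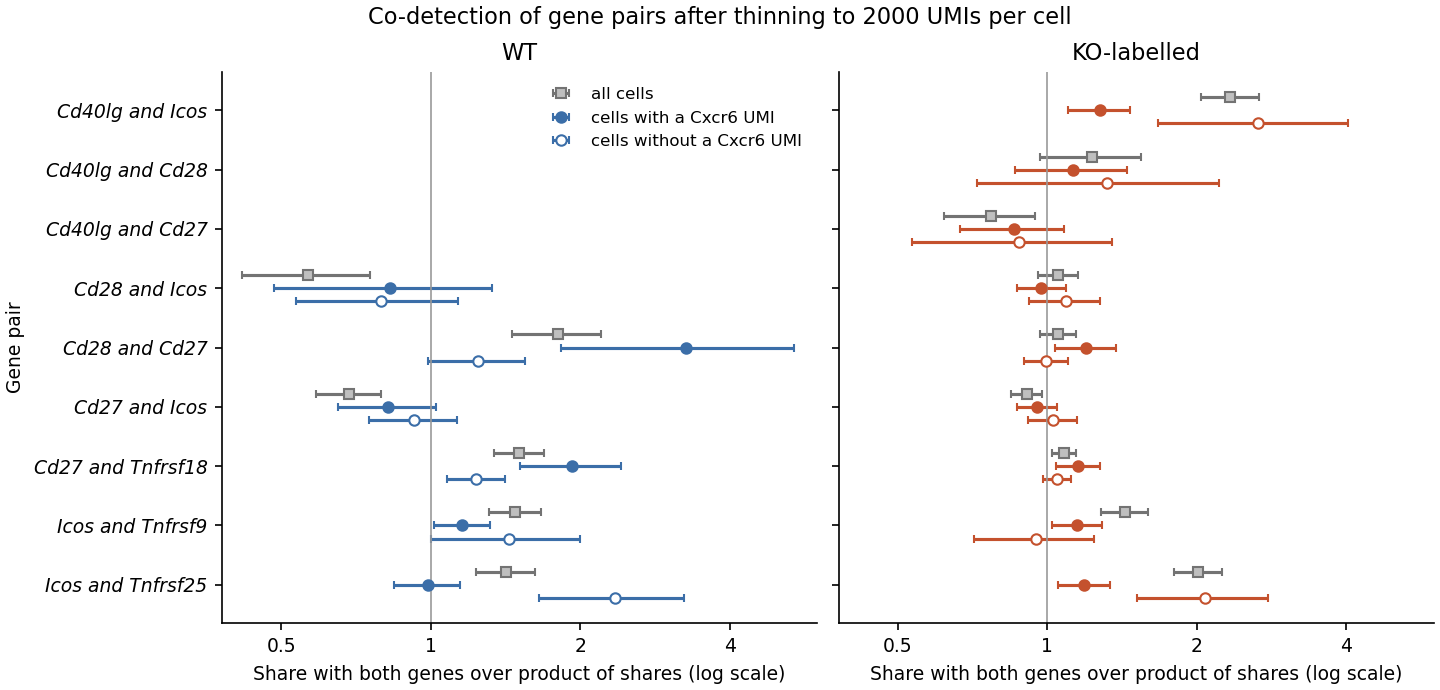
Share of thinned cells with UMIs of both genes over the product of the separate shares (log axis) for 9 gene pairs, WT in blue and KO-labelled in red, in each library, in all cells and by Cxcr6; bars are exact 95% Poisson intervals of the count of cells with both, and pairs met in under 10 cells are left out. Cd40lg and Icos are at 2.34 in all KO-labelled cells and 1.28 in those with Cxcr6, and Cd28 and Icos at 0.566 in WT and 1.05 in KO-labelled cells.

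A thinned cell had UMIs of 1.5 ± 0.994 of the 8 genes in WT (SD over 2125 cells) and 1.71 ± 1.13 in the KO-labelled library (5806 cells). With Cxcr6 the means were 1.65 and 2.23, and without it 1.36 and 1.45. At least 4 members were read in 1.93% of WT cells, 6.68% of KO-labelled cells and 14.3% of KO-labelled Cxcr6 cells. All of Cd40lg, Cd28, Cd27 and Icos were read in 23 KO-labelled cells, 22 of them with Cxcr6, and in 1 WT cell.

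Across the 19 sums of delta group, Cxcr6 status and library with at least 50 cells, the members fell into patterns that are described by Pearson's r of log2(CPM + 10). The sums share 2 libraries and differ in depth, so r is a description. Cd27 and Tnfrsf18 had r = 0.95, Cd28 and Tnfrsf18 0.83, Cd28 and Cd27 0.81, Icos and Tnfrsf25 0.92, and Cd27 and Tnfrsf9 -0.72. Cd40lg and Icos had r = 0.68. Among 6486 genes the 3 most like Cd40lg were Ccr8 (0.94), a chemokine receptor, Prkd3 (0.90), a protein kinase, and Cox7b (0.88), a subunit of cytochrome c oxidase. Those most like Icos were Nr1d1 (0.97), encoding the clock repressor REV-ERBα, Rora (0.97), encoding RORα, and S100a6 (0.97), a calcium-binding protein. Those most like Cd27 were Tnfrsf18, Fyb (0.95), an adaptor of TCR signaling, and Stk4 (0.91), a Hippo pathway kinase. Those most like Cd28 were the ribosomal protein genes Rps26 (0.93), Rpl24 (0.92) and Rpl28 (0.92). Of these 12 genes 7 stayed among the 3 highest with 1 in place of 10 added to CPM.

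A list of 45 further costimulation genes, ligands, checkpoint receptors and signaling adaptors, gave the background of the pathway. Over all cells 42 had enough UMIs, of which 1 was at least 2-fold higher and 3 lower, against 2.94% and 7.09% of all genes, shares that are close to these counts. Slamf6, a homotypic receptor of the SLAM family, was at least 2-fold higher in the KO-labelled library, at 70.9 against 27.8 CPM. Cd40, Cd80 and Cd86, receptors and ligands of antigen-presenting cells, were at least 2-fold lower, at 0.849 against 2.12 CPM for Cd40, 0.772 against 3.90 CPM for Cd80 and 5.21 against 17.5 CPM for Cd86. Myeloid markers moved with these 3 genes, and their part was not tested.

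Among Cxcr6 cells 6 of 38 were at least 2-fold higher in the KO-labelled library, namely Slamf6 (2.62 on the log2 scale), Btla (2.73), Cd6 (2.13), Cd5 (1.79), Cd2 (1.33) and Prkcq (1.26), against 4.79% of all genes, and 0 were lower, against 4.04%. Cd2 binds CD48, Cd5 and Cd6 are scavenger receptors that tune TCR signals, Btla is an inhibitory receptor and Prkcq encodes the kinase PKCθ downstream of CD28. The list median was 0.04 against 0.05 over all genes. Of the WT Cxcr6 cells 611 of 1130 were Trdv4 cells, against 56 of 2076 in the KO-labelled library. Counts for this list, here and by Cxcr6 within WT, were not made without Trdv4 or Tcrg-V6 cells. Among cells without Cxcr6, of 41 tested, Ctla4 was at least 2-fold higher, by 1.20, and 6 were at least 2-fold lower, including Slamf1 (-1.60) and Cd86 (-2.17), against 2.12% and 7.55% of all genes. Within WT, 10 of 38 were at least 2-fold lower with Cxcr6, including Slamf6 (-2.52), Cd6 (-1.71), Cd2 (-1.44) and Tigit (-1.17), against 8.2% of all genes. Pdcd1, encoding PD-1, and Tnfsf14, encoding LIGHT, were higher, by 1.21 and 1.75 on the log2 scale, against 4.72%. Within KO-labelled cells, 4 of 40 were at least 2-fold higher with Cxcr6, Tnfsf14 (2.03), Slamf1 (1.82), Tnfrsf1a (1.68) and Tnfrsf1b (1.25), against 5.7% of all genes, and Tnfsf8, Icosl and Cd86 were at least 2-fold lower, against 3.72%.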

How the data were processed

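Lung γδ T cells were profiled as 2 droplet libraries, 1 per group. The deposited matrices hold counts of UMIs per gene and barcode, produced by the authors through Cell Ranger against mm10 and left without normalisation. For the release, the submitters' processing notes give 7.0 and the file headers 7.0.0, while an older one stands in the methods of the study. A 3′ protocol is named in the labels, a 5′ V(D)J kit in the methods. Whether strand was used, introns were counted, or doublets were removed is not given in the sources used here, and no doublet caller was run.

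Cells with over 200 and under 4000 genes and under 10% mitochondrial UMIs were kept, as in the study. The libraries held 2520 and 6688 barcodes with 9173997 and 26436826 UMIs, and 2505 and 6634 cells with 8971636 and 25908306 UMIs were kept. A cell joined a delta or Tcrg-V group when all of its delta or gamma variable UMIs came from 1 gene (4 Trav15-dv6 genes counted as 1). Of WT cells 1654 and of KO-labelled cells 3358 had such a delta gene, and 1108 and 2619 such a Tcrg-V gene. UMIs were summed and scaled to CPM, with exact Poisson intervals and exact conditional intervals of ratios at 95%. Intervals of differences between ratios came from the Poisson variances of the 4 sums. A sum of 0 was set to 3 UMIs. Thinning to 2000 UMIs left out 380 WT and 828 KO-labelled cells. A gene counted as at least 2-fold different only with 30 UMIs over both sums. With 1 library per group no test was run.

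Genes named are the 8 members, genes of the list of 45 that were at least 2-fold different, the 3 genes with the highest r for each of Cd40lg, Cd28, Cd27 and Icos among genes with 300 UMIs (TCR, Y-linked and Xist genes left out), and marker genes used as context. The members and lists were chosen with earlier results of these data known. Coordinates are those of GENCODE M21 on GRCm38, and start regions come from RefSeq on GRCm38.p6. Python 3.11.15, numpy 2.4.6, scipy 1.17.1, pandas 2.3.3 and matplotlib 3.10.9 were used, and the steps were tested on simulated counts. Alternatives changed the cells kept, scaling, depth, group assignment, the Cxcr6 minimum and the filter on low counts.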

Additional observations from a re-analysis of the deposited data

Results flagged for a closer look

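The Cd28 ratio between cells with and without a Cxcr6 UMI had opposite signs in the libraries, with log2 values of -1.62 for WT cells and 0.11 for KO-labelled cells. The KO-labelled value was small, and KO-labelled Tcrg-V1 cells were at 150.5 CPM with and 149.9 CPM without Cxcr6. Within Trdv2-2 cells (-0.48 and -0.31) and Trav13-4-dv7 cells (-0.27 and -0.54) both point values were negative, with intervals of the difference that held 0. With 85 and 35 WT Cxcr6 cells in these groups, no sign is claimed for the WT values. With 1 library per group the difference was not tested.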

How the results depend on the processing

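No paired analysis was possible because WT and KO-labelled cells came as 1 library each. Leaving out cells with Trdv4 or Tcrg-V6 UMIs and taking Cxcr6 status from thinned cells were alternatives added once values were known. Of the 47 log2 ratios between libraries over 418 alternatives, 366 values stayed within the counting interval, 50 moved and 2 turned direction, counting only ratios whose own interval left out 0. Those 2 were Tnfrsf9 at 0.46 and Tnfrsf25 at 0.11, both without Trdv4 or Tcrg-V6 cells. Some ratios that could not be told from 0 also changed sign, such as Tnfrsf9 in Tcrg-V4 cells, at -1.06 with at least 2 UMIs of the Tcrg-V gene, and in cells without αβ T cell or Trbv UMIs Cd28 in Trav13-4-dv7 at -0.27 and Cd27 in Tcrg-V1 at -0.26. The co-detection ratio of Cd27 and Icos in KO-labelled cells became 1.02 without thinning. The ratio of Cd28 between libraries became 0.85 without Trdv4 or Tcrg-V6 cells, 1.52 without cells with αβ T cell or Trbv UMIs and 1.5 as a mean of CPM over cells. The WT ratio of Cd28 with over without Cxcr6 was -0.91, -2.03 and -1.96 under these 3 alternatives, -2.17 with thinned cells and -1.96 with Cxcr6 status from thinned cells. In KO-labelled cells it was 0.26 with thinned cells. The KO-labelled ratio of Cd40lg with over without Cxcr6 was 2.60 without cells with αβ T cell or Trbv UMIs, 3.38 with at least 2 Cxcr6 UMIs and 2.79 with Cxcr6 status from thinned cells. The cause was not tested in any of these.

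The count of members at least 2-fold lower became 1 in all cells and in Trdv5 cells, each with mean CPM and with thinned cells, and 1 in Tcrg-V4 cells when at least 2 UMIs of the Tcrg-V gene were asked for. The count at least 2-fold higher became 1 in Trdv2-2 cells with mean CPM and 1 in Tcrg-V1 cells with mean CPM and with thinned cells, where it was 3 without cells with αβ T cell or Trbv UMIs. The percentage of all genes at least 2-fold higher between libraries was 1.74 with at least 100 UMIs. The percentage lower with Cxcr6 was 12.3 with at least 10 UMIs and 5.28 with at least 100 in WT, and 6.68 and 2.19 in KO-labelled cells. With 1 in place of 10 added to CPM, 7 of the 12 similar genes stayed. Depth limits Cd40lg and Tnfrsf4 most, which had 18 and 21 UMIs in WT.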
